A study of Mus musculus with 11 samples.

Results

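The 10 genes described here encode the 5 DNA-binding subunits of the transcription factor NF-kB (Nfkb1, Nfkb2, Rel, Rela and Relb) and 5 proteins that inhibit or modify it (Nfkbia, Tnfaip3, Nfkbiz, Nfkbid and Bcl3). They were chosen by gene symbol, without a threshold on any value, but with earlier results of these data known. All 10 were found among the 57186 gene entries of the count table. Their RNA was measured by bulk sequencing in sorted cells of untreated Cd3giCreRosa26stopZsGreen mice aged 14 days. In these mice an iCre recombinase under Cd3g switches on the ZsGreen reporter for good, so ZsGreen marks past or present Cd3g expression in the cell or in its ancestors, and the label cannot separate these. There were 5 libraries of ZsGreen-negative lung ILC2 (group 2 innate lymphoid cells, tissue-resident lymphocytes that make type 2 cytokines), 3 libraries of ZsGreen-positive lung ILC2, and 3 libraries of DN3 cells, the thymocyte stage at which the T cell receptor beta chain is rearranged. All 3 groups carry both alleles named in the genotype, and no group without the reporter was analysed here. Nothing in the labels says that libraries of a group came from separate animals, so the p-values rest on a spread between libraries that may be technical.

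NF-kB is a dimer of Rel family proteins that waits in the cytoplasm, bound by IkB proteins such as the product of Nfkbia, until a receptor activates the IkB kinase (IKK) complex and the IkB protein is degraded. The freed dimer enters the nucleus and switches on cytokine, survival and adhesion genes together with genes of its own inhibitors, of which Nfkbia and Tnfaip3 are textbook cases, so that the signal ends itself. In ILC2 the alarmin IL-33 signals to NF-kB through its receptor Il1rl1, and in DN3 cells the pre-T cell receptor is one known source of NF-kB activity.

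Total counts lay between 4495260 and 14424313 in ZsGreen-negative ILC2, between 5762491 and 17627469 in ZsGreen-positive ILC2, and between 5951494 and 7745062 in DN3 cells. Against ZsGreen-negative ILC2, 11 of 13 ILC2 markers were lower in DN3 cells and 1 was higher (Thy1, a surface protein of both lineages). In this comparison 41.2% of the 15132 genes tested were lower and 35.5% higher. Of 13 DN3 markers 10 were higher and 2 lower, Hes1, at 70.1 against 155 CPM, and Ptprc, which stands on both lists. Rora, a factor ILC2 need, had 1508 ± 265 CPM (counts scaled to library size, mean ± SD, n = 5) in ZsGreen-negative ILC2, 1295 ± 240 (n = 3) in ZsGreen-positive ILC2 and 1.90 ± 0.624 (n = 3) in DN3 cells. Rag1, a subunit of the recombinase that cuts receptor genes, had 1265 ± 47.5 CPM in DN3 cells (n = 3), and no lung library passed 0.518 CPM. Levels are CPM after scaling over all 11 libraries unless said otherwise. All DN3 libraries carry a batch date of their own, so for DN3 cells tissue, cell type and batch cannot be told apart.

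The 10 genes together took between 1.07% and 1.28% of all counts in the 8 lung libraries, and between 0.0485% and 0.0488% in the 3 DN3 libraries. Against ZsGreen-negative ILC2, 10 of 10 genes were lower in DN3 cells, where 41.2% of the 15132 genes tested were called lower and 35.5% higher (edgeR quasi-likelihood test, Benjamini-Hochberg (BH) adjusted p under 0.05). Against ZsGreen-positive ILC2, again 10 of 10 were lower, where 40.3% of genes were called lower and 34.8% higher. The median log2 fold change of the 10 genes was -5.94 and -5.87 in these comparisons, beside -0.10 and -0.08 over all genes tested. Both comparisons use the same 3 DN3 libraries, so they are not independent of each other. Between the ILC2 groups, 0 of 10 genes were called in either direction, where 2.35% of 13771 genes were called higher and 2.18% lower. In bulk RNA, fewer cells that express a gene and less RNA per cell cannot be told apart.

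**Figure D1:**
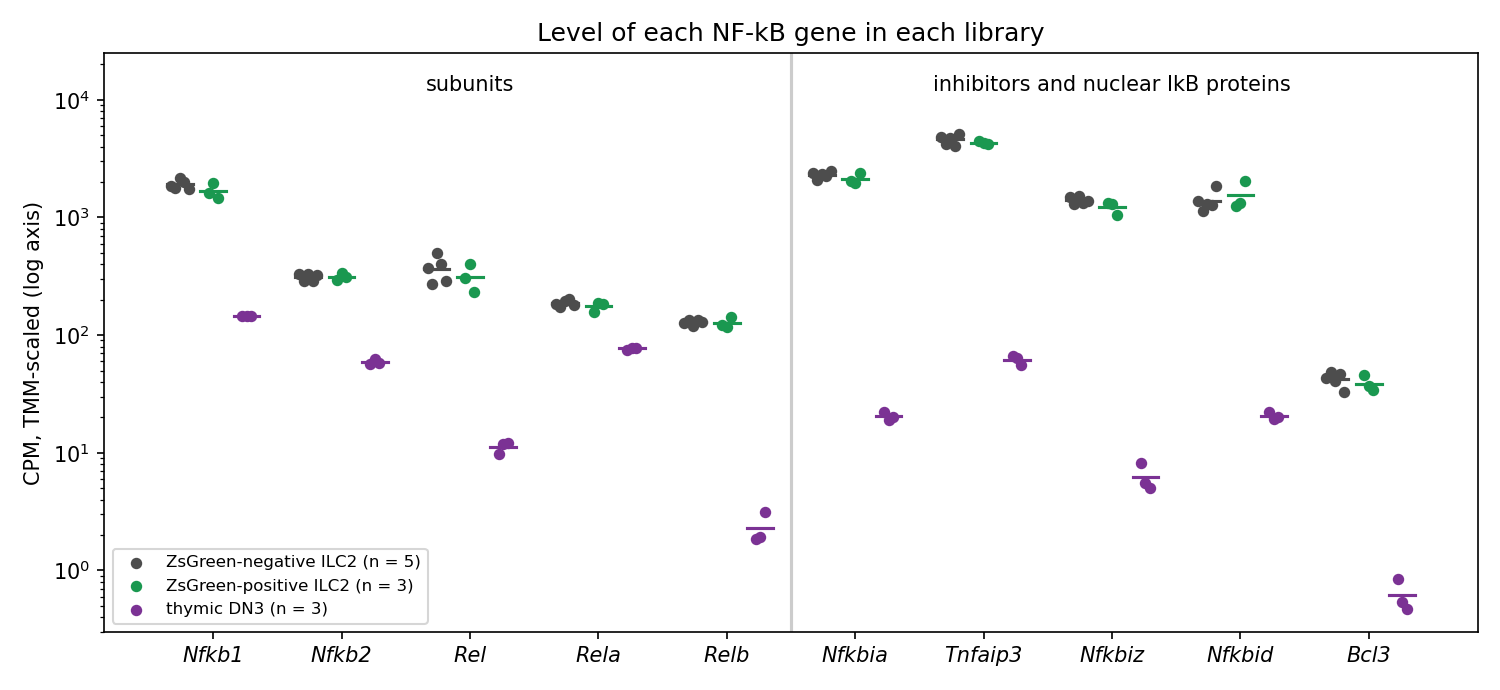
Level of each of the 10 genes in each library, in TMM-scaled CPM on a log axis; points are libraries, short bars are group means, and subunits stand left of the grey line. The points of both ILC2 groups overlap for every gene, and the 3 DN3 points lie below all lung points for every gene. Of all genes tested, 10.2% had no overlap between the ILC2 groups. The share without overlap, in either direction, was 73.9% for DN3 against ZsGreen-negative and 78.2% for DN3 against ZsGreen-positive ILC2.

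Sequences before annotated transcription starts are shown because several of the 10 genes are known to be switched on by NF-kB itself. Whether such sites have a part in the levels measured here was not tested. RefSeq promoter windows of build GRCm38.p6 were at hand for 7 of the 10 genes, Nfkb2, Rel, Rela, Nfkbia, Nfkbid, Tnfaip3 and Bcl3, and not for Nfkb1, Relb and Nfkbiz. The 250 bases before each annotated start were searched on both strands for the kappaB consensus, the site of 10 bases that NF-kB dimers bind. A match was found for 5 of these 7 genes, Nfkb2, Rel, Nfkbia, Nfkbid and Tnfaip3, and for 2225 of 27025 genes (8.23%) in the whole table. The gene lists described below also lay above that share. Matches were found for 8 of 22 NF-kB targets (36.4%), 5 of 14 other brakes (35.7%) and 4 of 16 receptors (25%). They were also found for 6 of 24 immediate early genes (25%), 3 of 16 adaptors and ligases (18.8%) and 1 of 8 genes of the IKK and kinase list (12.5%). A gene counted if any of its windows held a match, and genes differ in their number of windows. Nfkb2, Nfkbid and Tnfaip3 were searched in multiple windows. Over all windows, 2382 of 32851 (7.25%) held a match. Rela and Bcl3 held no match in this window. The matches are descriptions of letters, and binding was not measured. Stretches without annotated exon bases of the 10 genes are given below, 5′ to 3′ on the strand of the gene. Exons of other genes were not checked. The letters of a kappaB match on either strand, or of overlapping matches, are in capitals.
Rel, chr11:23771031-23771081, minus strand: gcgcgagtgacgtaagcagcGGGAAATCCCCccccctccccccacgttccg
Nfkb2, chr19:46305445-46305488, plus strand: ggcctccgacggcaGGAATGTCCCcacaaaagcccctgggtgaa
Nfkbia, chr12:55492648-55492696, minus strand: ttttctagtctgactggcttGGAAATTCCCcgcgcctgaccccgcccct
Tnfaip3, chr10:19015411-19015442, minus strand: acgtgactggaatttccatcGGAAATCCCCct
Nfkbid, chr7:30422160-30422254, plus strand: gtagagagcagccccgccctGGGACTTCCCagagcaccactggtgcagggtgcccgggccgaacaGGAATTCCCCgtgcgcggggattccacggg
The printed match of Nfkbia began 29 bases before the start, that of Tnfaip3 12 bases before it, and the overlapping pair of Rel 92 and 91 bases before it. Those of Nfkbid lay 226 and 181 bases before one of its annotated starts, and that of Nfkb2 lay 236 bases before one of its starts. Further matches lay in stretches that overlap annotated exons and are not printed. For Nfkb2 they lay 39, 38 and 11 bases before the first of its RefSeq starts and 225 bases before another. For Tnfaip3 the further match lay at 125 bases. All matches of Nfkb2, Nfkbid and Tnfaip3 lie within the gene as drawn in the GENCODE M21 annotation, downstream of its outermost start. Those of Rel and Nfkbia lie upstream of the gene.

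Among the subunits, Nfkb1, whose precursor is processed to a DNA-binding subunit without an activation domain of its own, had the highest level per kb of transcript in both ILC2 groups, with either length used below. It had 1862, 1778, 2148, 2011 and 1761 CPM in the ZsGreen-negative libraries, 1621, 1952 and 1457 CPM in the ZsGreen-positive libraries, and 144, 145 and 146 CPM in the DN3 libraries. The ILC2 groups overlapped, and the DN3 libraries lay far below both and close to each other. Nfkb1 was 13.2-fold lower in DN3 cells than in ZsGreen-negative ILC2 (log2 fold change -3.72, SE 0.12, edgeR BH-adjusted p = 1.62e-17) and 11.6-fold lower than in ZsGreen-positive ILC2 (-3.53, SE 0.12, adjusted p = 8.62e-17). An annotated transcript of unknown coding status, Gm43430, lies within Nfkb1 on the same strand, at 87.0 to 218 CPM in the lung libraries and 0.846 to 1.64 CPM in DN3 cells, and how reads were shared between the pair is not given in the sources used here.

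Rela encodes the activating subunit of the classical dimer, and of the 10 genes it changed least. It had 184, 175, 196, 203 and 181 CPM in the ZsGreen-negative libraries, 157, 189 and 186 CPM in the ZsGreen-positive libraries, and 75.4, 77.8 and 78.0 CPM in DN3 cells. The DN3 libraries lay below all lung libraries here too, by a small step. The log2 fold change was -1.28 (SE 0.09, edgeR BH-adjusted p = 8.10e-12) against ZsGreen-negative ILC2 and -1.20 (SE 0.09, adjusted p = 1.13e-10) against ZsGreen-positive ILC2.

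Rel, the activating subunit best known from lymphocytes, had 371, 273, 498, 399 and 291 CPM in the ZsGreen-negative libraries, 303, 398 and 233 CPM in the ZsGreen-positive libraries, and 9.73, 11.9 and 12.2 CPM in DN3 cells. It was the most uneven of the 10 genes within ZsGreen-negative ILC2, with an SD of 24.7% of its mean, and its ILC2 groups overlapped. Rel was 32.2-fold lower in DN3 cells than in ZsGreen-negative ILC2 (log2 fold change -5.01, SE 0.30, edgeR BH-adjusted p = 5.66e-08) and 27.3-fold lower than in ZsGreen-positive ILC2 (-4.77, SE 0.31, adjusted p = 1.19e-07).

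Relb and Nfkb2 encode the partners of the alternative, slower NF-kB pathway. Relb lay between 117 and 142 CPM over the 8 lung libraries and at 1.83, 1.94 and 3.16 CPM in DN3 cells, 55.2-fold lower than in ZsGreen-negative ILC2 (log2 fold change -5.79, SE 0.15, edgeR BH-adjusted p = 2.80e-19). Nfkb2 lay between 288 and 340 CPM in the lung libraries and at 56.4, 62.4 and 58.3 CPM in DN3 cells, 5.29-fold lower (-2.40, SE 0.09, adjusted p = 3.45e-16). So these partners fell by unequal amounts. Against ZsGreen-positive ILC2 the log2 fold changes were -5.77 (SE 0.15) for Relb and -2.41 (SE 0.10) for Nfkb2. Psd, a gene on the other strand, overlaps Nfkb2 and had 99.8 to 131 CPM in the lung libraries and 16.1 to 21.6 CPM in DN3 cells, and the sources used here do not say whether counting used the strand.

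The make-up of the subunit RNA differed between DN3 cells and both ILC2 groups. Divided by the length of the principal transcript in the GENCODE M21 annotation, Nfkb1 made up 62.7% ± 0.957 (SD, n = 5) of the summed CPM per kb of the 5 subunit genes in ZsGreen-negative ILC2, 60.4% ± 2.70 (n = 3) in ZsGreen-positive ILC2 and 41.5% ± 0.720 (n = 3) in DN3 cells. Rela made up 9.35% ± 0.360, 9.75% ± 1.15 and 33.4% ± 0.132 in the same order. Rel and Relb were each under 2% of the DN3 sum, at 1.77% ± 0.177 and 1.23% ± 0.379. Which subunit came first in DN3 cells depended on the length used: with the union of all exons, Rela held 48.2% ± 0.389, Nfkb2 24.7% ± 0.812 and Nfkb1 23.1% ± 0.501, while Nfkb1 stayed first in both ILC2 groups with 42.8% ± 0.812 and 40.8% ± 2.33. The ratio of Nfkb1 to Rela in CPM, where length cancels between groups, was 10.2 ± 0.483, 9.51 ± 1.44 and 1.88 ± 0.0262 in ZsGreen-negative ILC2, ZsGreen-positive ILC2 and DN3 cells.

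**Figure D2:**
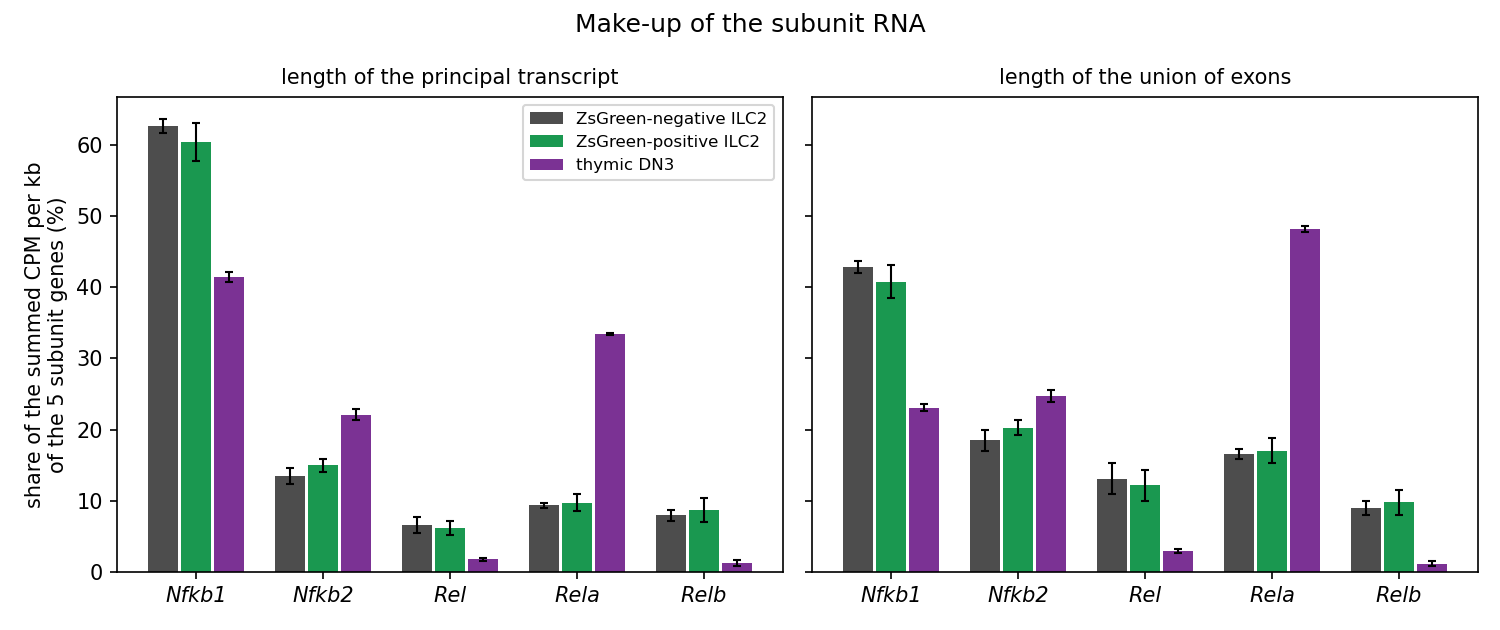
Share of each subunit gene in the summed CPM per kb of the 5 subunit genes, in percent, with the principal transcript (left) or the union of exons (right) as length; bars are group means and whiskers SD (n = 5, 3 and 3). Rela takes 33.4% (left) and 48.2% (right) in DN3 cells and less than 20% in both ILC2 groups.

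Among the 10 genes, the inhibitors and nuclear IkB proteins fell further than the subunits. The 5 log2 fold changes of DN3 cells against ZsGreen-negative ILC2 lay between -7.83 and -6.09 for the inhibitors and nuclear IkB proteins, and between -5.79 and -1.28 for the subunits. Against ZsGreen-positive ILC2 the ranges were -7.63 to -5.96 and -5.77 to -1.20. The ranges of these changes did not overlap in either comparison, which is a description of 10 genes and was not tested. By median, the 17 other IkB proteins and brakes listed below fell less than the subunits. Their medians were -1.16 and -1.30 against ZsGreen-negative and ZsGreen-positive ILC2, beside -3.72 and -3.53 for the subunits.

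Tnfaip3, an enzyme that removes and adds ubiquitin on signalling proteins upstream of IKK, had 4870, 4210, 4757, 4068 and 5116 CPM in the ZsGreen-negative libraries, 4498, 4259 and 4173 CPM in the ZsGreen-positive libraries, and 66.7, 63.6 and 55.4 CPM in DN3 cells. The ILC2 groups overlapped and no DN3 library came near them. It was 74.4-fold lower in DN3 cells than in ZsGreen-negative ILC2 (log2 fold change -6.22, SE 0.14, edgeR BH-adjusted p = 2.93e-20) and 69.6-fold lower than in ZsGreen-positive ILC2 (-6.12, SE 0.14, adjusted p = 5.83e-20).

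Nfkbia, the classical cytoplasmic inhibitor, had 2382, 2085, 2340, 2264 and 2502 CPM in the ZsGreen-negative libraries, 2048, 1950 and 2384 CPM in the ZsGreen-positive libraries, and 22.1, 18.8 and 20.1 CPM in DN3 cells. Lung libraries of both labels again shared a range. Per kb of principal transcript Nfkbia had the highest level of the 10 genes in ILC2, with a mean of 1467 CPM per kb in ZsGreen-negative and 1348 in ZsGreen-positive cells, beside 12.9 in DN3 cells, where Nfkb1 stood at 35.2. The fall was 114-fold against ZsGreen-negative ILC2 (log2 fold change -6.83, SE 0.14, edgeR BH-adjusted p = 7.48e-21) and 105-fold against ZsGreen-positive ILC2 (-6.71, SE 0.14, adjusted p = 1.71e-20).

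The nuclear IkB proteins bind NF-kB dimers on DNA and raise or lower transcription there. Nfkbiz changed most of the 10 genes: it had 1482, 1309, 1513, 1316 and 1381 CPM in the ZsGreen-negative libraries, 1322, 1291 and 1052 CPM in the ZsGreen-positive libraries, and 8.18, 5.48 and 5.03 CPM in DN3 cells. It was 228-fold lower in DN3 cells than in ZsGreen-negative ILC2 (log2 fold change -7.83, SE 0.17, edgeR BH-adjusted p = 1.75e-20) and 198-fold lower than in ZsGreen-positive ILC2 (-7.63, SE 0.17, adjusted p = 3.74e-20). Bcl3, which pairs with the subunits that lack an activation domain, had the lowest level per kb of the 10 genes in every group. Bcl3 lay between 32.8 and 48.5 CPM over the lung libraries and had 6, 5 and 4 counts in the DN3 libraries. Its log2 fold change against ZsGreen-negative ILC2 was -6.09 (SE 0.24, edgeR BH-adjusted p = 7.02e-16), with a 95% interval from -6.60 to -5.59. Against ZsGreen-positive ILC2 it was -5.96 (SE 0.25).

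Nfkbid had 1370, 1141, 1309, 1266 and 1869 CPM in the ZsGreen-negative libraries, 1246, 1339 and 2029 CPM in the ZsGreen-positive libraries, and 21.99, 19.2 and 20.1 CPM in DN3 cells. The highest library of each ILC2 group was the one of the April 2025 batch. Its log2 fold change in DN3 cells was -6.09 (SE 0.23, edgeR BH-adjusted p = 3.07e-12) against ZsGreen-negative ILC2 and -6.24 (SE 0.24, adjusted p = 3.87e-12) against ZsGreen-positive ILC2.

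**Figure D3:**
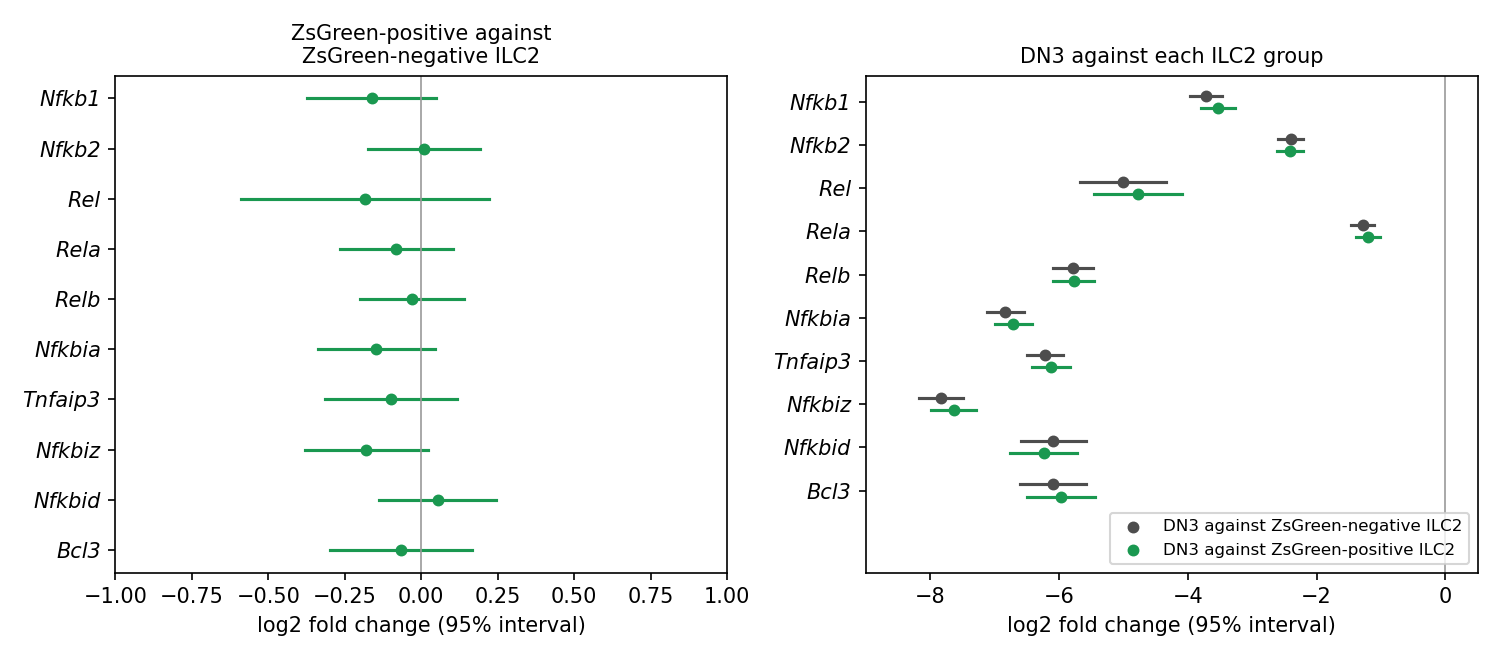
Log2 fold change of each gene with its 95% interval, for ZsGreen-positive against ZsGreen-negative ILC2 (left, axis from -1 to 1) and for DN3 cells against each ILC2 group (right). Every interval on the left spans 0, and every interval on the right lies below -1.

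Whether the ZsGreen label went with other levels of these genes was asked by comparing ZsGreen-positive with ZsGreen-negative ILC2. Cd3g RNA itself was present in both groups, at 152 ± 16.5 CPM in ZsGreen-positive and 35.3 ± 4.34 CPM in ZsGreen-negative libraries. The negative group can therefore not be read as free of Cd3g expression. The log2 fold changes ran from -0.18 for Rel to 0.05 for Nfkbid, 8 of 10 were negative, and edgeR BH-adjusted p-values lay between 0.367 (Nfkbiz) and 0.979 (Nfkb2). At an unadjusted p under 0.05, 0 of 10 genes passed, and DESeq2 and limma voom also called 0 and 0. The 95% intervals of the 10 changes reached from -0.59 (Rel) to 0.25 (Nfkbid), which bounds the differences these libraries allow and does not show that the groups are alike. The interval was narrowest for Relb (-0.20 to 0.14) and widest for Rel (-0.59 to 0.22). Markers of lung structural cells moved between these groups: 4 of 25 tested were called higher in ZsGreen-positive ILC2 and 0 lower. Over all genes tested, 2.35% were called higher and 2.18% lower. The summed level of these markers was 514 to 1506 CPM in ZsGreen-negative and 1323 to 3226 CPM in ZsGreen-positive libraries. With a structural cell score as a further term, 0 of 10 NF-kB genes were called, in a fit that called 16 genes higher and 43 lower in all.

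The level of 1 gene differed by batch date. The 2 lung libraries of April 2025, 1 of each label and the 2 deepest, were compared with the 6 lung libraries of September 2024 with label as a term, a comparison chosen after the values were seen. Nfkbid was called higher in the 2025 libraries, at 1869 and 2029 CPM against 1141 to 1370 CPM (log2 fold change 0.60, SE 0.10, edgeR BH-adjusted p = 0.00728), and the other 9 genes were not called, where 0.341% of genes were called higher and 0.32% lower. With 1 library of 2025 left, the Nfkbid call was lost: adjusted p was 0.0892 when ZsGreen-negative library 5 was left out and 0.145 when ZsGreen-positive library 3 was, with log2 fold changes of 0.65 and 0.56. Rel was lower by 0.48 (SE 0.20, adjusted p = 0.365), and of the 8 fits that leave out a library it was called in 1, the fit without ZsGreen-negative library 2 (-0.56, adjusted p = 0.0474). The 2025 libraries also lay above all others for Nfkbia (2384 and 2502 against at most 2382 CPM, adjusted p = 0.427) and below all others for Bcl3 (32.8 and 34.0 against at least 36.6 CPM, adjusted p = 0.181), with neither gene called. The share of all genes that lay apart by batch in this way is not given here, so these orders carry little weight. Sequencing depth moved with this batch, and its part was not tested.

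**Figure D4:**
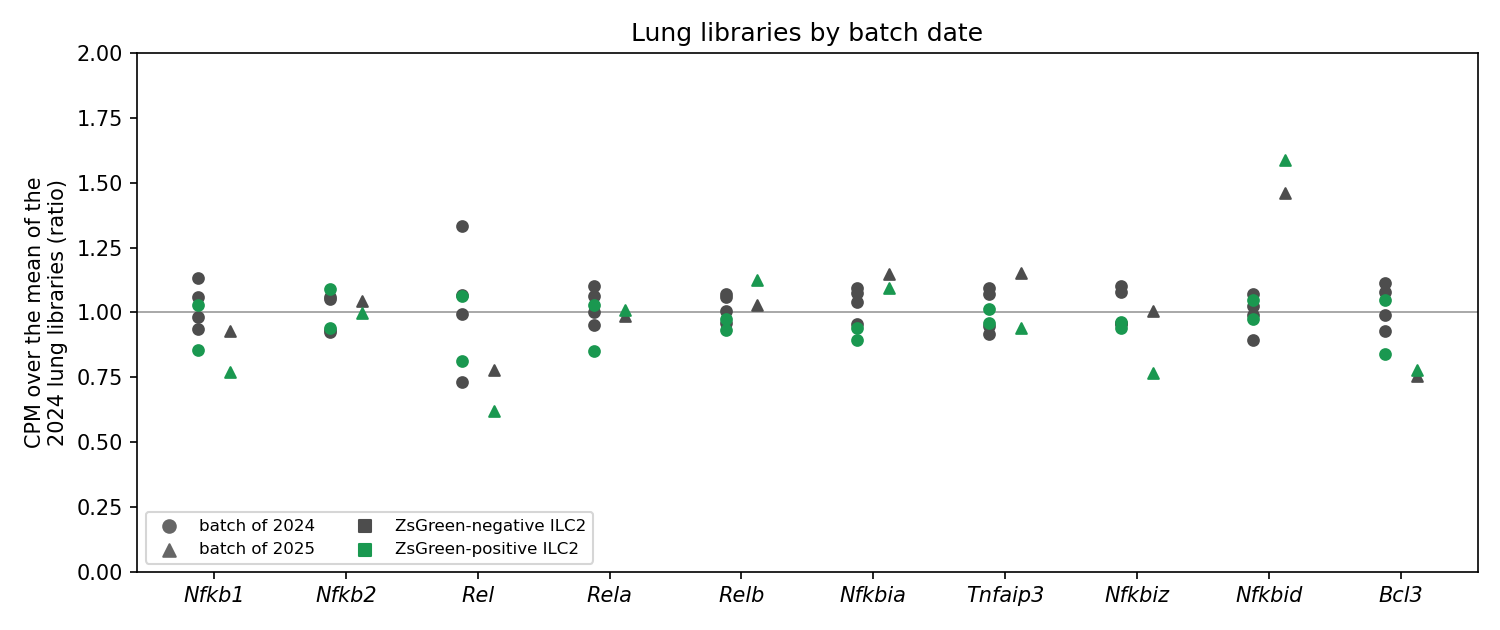
CPM of each gene in the 8 lung libraries over the mean of the 6 libraries of 2024, as a ratio; circles are 2024, triangles 2025, and colour gives the ZsGreen label. Both Nfkbid triangles lie above all Nfkbid circles.

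The rest of the pathway was read in lists by role. The counts in DN3 cells in each list below stand beside the shares over all genes tested. These were 41.2% called lower and 35.5% higher against ZsGreen-negative ILC2, and 40.3% lower and 34.8% higher against ZsGreen-positive ILC2. Among IKK subunits, related or upstream kinases and their adaptors, 9 of 11 were lower and 1 higher in DN3 cells than in ZsGreen-negative ILC2. The median log2 fold change was -0.61. Map3k8, a kinase held by the Nfkb1 precursor, fell from 152 ± 15.4 CPM (n = 5) to 4.96 ± 1.11 CPM (n = 3), and Map3k14, the kinase that starts the alternative pathway, from 117 ± 13.6 to 20.5 ± 1.66 CPM. The IKK scaffold Ikbkg was not called (log2 fold change -0.03), and Tab1, an adaptor of the kinase Map3k7, was higher (53.4 ± 6.70 against 29.9 ± 4.59 CPM). Against ZsGreen-positive ILC2, 8 of 11 were lower and 1 higher.

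Of the adaptors and ubiquitin ligases that link receptors to IKK, 16 of 20 were lower and 2 higher in DN3 cells against either ILC2 group, with median log2 fold changes of -1.05 and -1.02. Irak2, a kinase-like adaptor of the IL-1 receptor family, had 102 ± 16.4 CPM in ZsGreen-negative ILC2 (n = 5) and 1.04 ± 0.197 CPM in DN3 cells (n = 3). Traf1, itself a known NF-kB target, had 287 ± 28.5 and 8.25 ± 1.56 CPM, and Birc3, a ubiquitin ligase, 352 ± 12.2 and 19.5 ± 1.98 CPM. Traf6, the ligase of IL-1 and Toll-like receptor signalling, went the other way, at 49.8 ± 4.64 and 77.5 ± 4.48 CPM, as did its partner Ube2n at 65.3 ± 4.44 and 87.5 ± 4.86 CPM.

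Of 17 other IkB proteins and brakes on the pathway, 14 were lower and 0 higher against ZsGreen-negative ILC2 (median log2 fold change -1.16), and 14 lower and 1 higher against ZsGreen-positive ILC2 (-1.30). Zc3h12a, an RNase that degrades inflammatory mRNA, had 252 ± 20.8 CPM in ZsGreen-negative ILC2 (n = 5) and 20.9 ± 1.32 CPM in DN3 cells (n = 3). Tnip1, a partner of Tnfaip3, had 170 ± 4.00 and 36.9 ± 1.76 CPM, and the deubiquitinase Cyld 207 ± 8.12 and 61.7 ± 1.75 CPM. Nkrf, called higher against ZsGreen-positive ILC2 alone (log2 fold change 0.31, SE 0.12, edgeR BH-adjusted p = 0.0278), lost that call without ZsGreen-positive library 2 (adjusted p = 0.109) and without DN3 library 2 (adjusted p = 0.113). The medians of these 3 lists of signalling genes lay nearer to 0 than the median of the 10 NF-kB genes.

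Of 19 receptors that signal to NF-kB, 14 were lower and 3 higher in DN3 cells against ZsGreen-negative ILC2 (median log2 fold change -2.94), and 14 lower and 2 higher against ZsGreen-positive ILC2 (-2.67). Il1rl1, the IL-33 receptor, had 3169 ± 310 CPM in ZsGreen-negative (n = 5) and 2985 ± 394 CPM in ZsGreen-positive ILC2 (n = 3), and 0 counts in all 3 DN3 libraries. Against a floor of 3 counts over the DN3 group (0.12 CPM) it was at least 26353-fold and 24824-fold lower. Il18rap, a chain of the IL-18 receptor, had 264 ± 8.91 and 297 ± 11.1 CPM in ILC2 and 3 counts in all over the DN3 libraries. Tnfrsf1a, a receptor for tumour necrosis factor, was higher in DN3 cells (32.1 ± 1.45 against 11.8 ± 3.62 CPM), as was Il17ra (186 ± 7.95 against 131 ± 12.8 CPM). The third receptor called higher, Ltbr, was named after its values were seen, and its log2 fold change of 0.99 against ZsGreen-negative ILC2 (edgeR BH-adjusted p = 0.0145) was not called without DN3 library 3 (0.83, adjusted p = 0.078).

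Of 25 tested genes listed as NF-kB targets, 24 were lower and 0 higher in DN3 cells against ZsGreen-negative ILC2, and 23 lower and 0 higher against ZsGreen-positive ILC2, with medians of -6.14 and -5.99. Csf2, the cytokine GM-CSF, had 705 ± 47.8 and 852 ± 15.6 CPM in ZsGreen-negative and ZsGreen-positive ILC2 (n = 5 and 3) and 0 counts in DN3 cells. Gadd45b, a stress-response gene, had 2003 ± 136 and 1922 ± 203 CPM in ILC2 and 1.26 ± 0.685 CPM in DN3 cells, and the adhesion molecule Icam1 had 138 ± 11.98 CPM in ZsGreen-negative ILC2 and 11.5 ± 1.07 CPM in DN3 cells. Sod2, a mitochondrial enzyme, was not called in either comparison (log2 fold changes of -0.11 and 0.11). Targets of NF-kB are also targets of other factors, so their fall does not measure NF-kB activity.

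Immediate early and dissociation genes, which rise within minutes of cell handling or activation, moved the same way. Of 30 tested, 24 were lower and 4 higher in DN3 cells against ZsGreen-negative ILC2 (median log2 fold change -6.19), and 24 lower and 2 higher against ZsGreen-positive ILC2 (-6.33). Their summed level was 35712 to 44603 CPM in ZsGreen-negative ILC2, 34226 to 36990 CPM in ZsGreen-positive ILC2 and 3830 to 4167 CPM in DN3 cells, and of the 30 genes 1, Atf3, was at 0 in DN3 cells. Fosl2, an AP-1 factor, had 4795 ± 459 CPM in ZsGreen-negative ILC2 (n = 5) and 1.43 ± 0.5 CPM in DN3 cells (n = 3), and the nuclear receptor Nr4a3 had 3924 ± 620 and 0.713 ± 0.25 CPM. The genes that were higher in DN3 cells against ZsGreen-negative ILC2 were the chaperone Hsp90aa1, the phosphatase Dusp2, Myc and, named after its values were seen, Socs3 (log2 fold change 0.52). Their part in the levels of the 10 NF-kB genes was not tested.

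**Figure D5:**
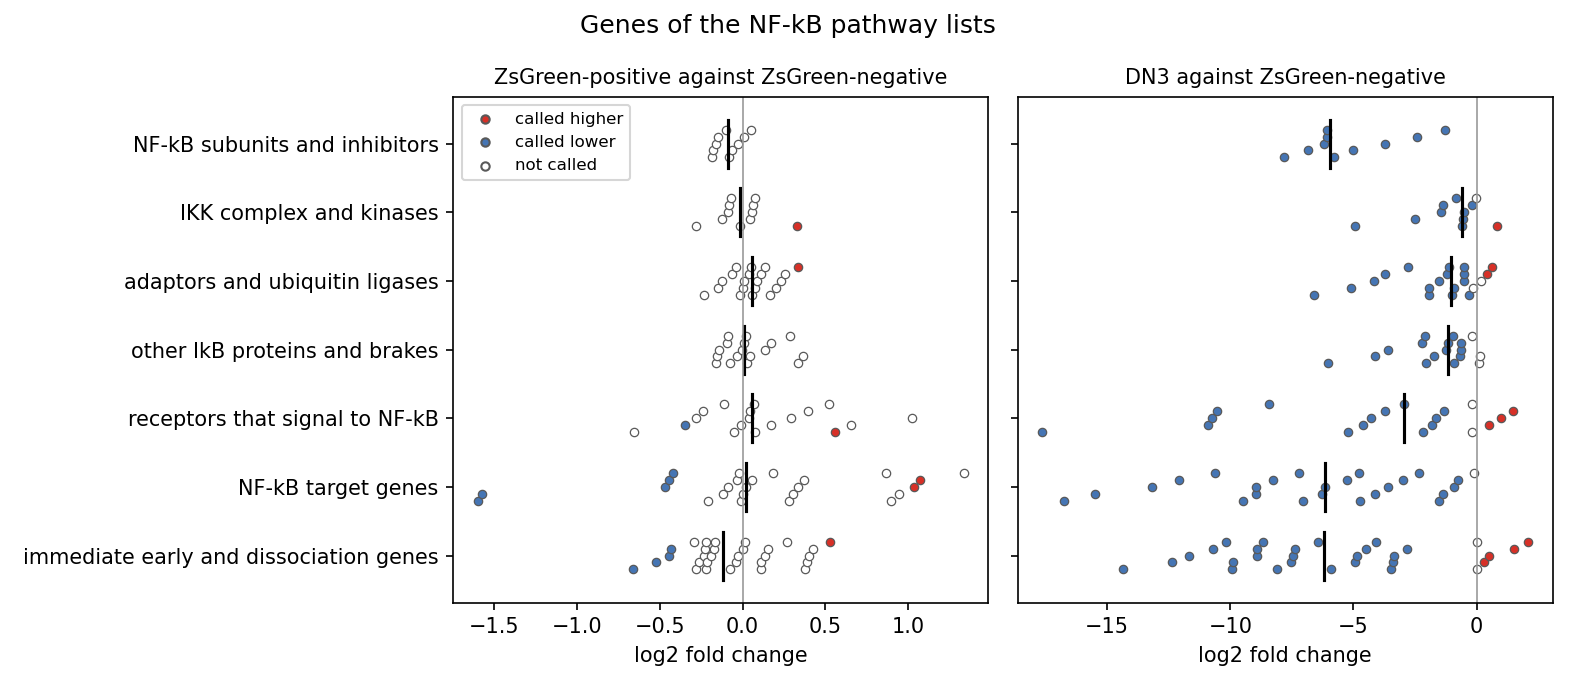
Log2 fold change of each tested gene by list, for ZsGreen-positive against ZsGreen-negative ILC2 (left) and DN3 cells against ZsGreen-negative ILC2 (right, wider axis); red points were called higher, blue points lower and open points not called, and black bars are medians. On the left the medians lie between -0.12 and 0.06, and on the right those of the 10 NF-kB genes, the targets and the immediate early genes lie near -6.

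In ZsGreen-positive against ZsGreen-negative ILC2, 2.35% of all genes tested were called higher and 2.18% lower. In the IKK and kinase list 1 of 11 genes was higher (Map3k8), and 1 of 20 adaptors and ligases was higher (Rnf31). Among 17 brakes, 0 were called in either direction (2 at an unadjusted p under 0.05). Among 18 receptors, 1 was higher (Tnfrsf4) and 1 lower (Tnfrsf18). Of 25 targets, 2 were higher (Ccl5 and Il6) and 5 lower, among them Plau, a protease that activates plasminogen, at 7.34 ± 2.36 against 23.5 ± 6.00 CPM (log2 fold change -1.57, SE 0.23, edgeR BH-adjusted p = 0.000894), and the chemokine Cxcl2 at 1174 ± 221 against 1697 ± 269 CPM (-0.47, SE 0.09, adjusted p = 0.00614). Of 30 immediate early genes, 1 was higher (Egr2) and 4 lower, among them Klf4 (-0.66, SE 0.10, adjusted p = 0.000715) and Zfp36, which binds and destabilises cytokine mRNA (-0.52, SE 0.09, adjusted p = 0.00136). Plau, Cxcl2, Klf4 and Zfp36 stayed called when any single lung library was left out. With the structural cell score as a term their log2 fold changes were -1.41, -0.57, -0.61 and -0.44, their edgeR BH-adjusted p was 0.124, 0.111, 0.105 and 0.266, and 0 genes of these lists were called. With all 11 libraries fitted without a batch term, Klf4 (log2 fold change -0.67, adjusted p = 0.0839) and Zfp36 (-0.45, adjusted p = 0.109) were not called. Zfp36 was also not called in the lung libraries without the batch term (-0.45, adjusted p = 0.148).

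The other 12 calls between the ILC2 groups were lost when single libraries were left out, while each log2 fold change kept its direction. Over the 8 fits that each leave out a lung library, it ran from 0.29 to 0.37 for Map3k8 (0.33 with all), from 0.50 to 0.61 for Tnfrsf4 (0.56), from 0.78 to 1.15 for Il6 (1.04), from -0.51 to -0.36 for Cxcl1 (-0.44) and from -2.31 to -1.32 for Sele (-1.60). Without ZsGreen-negative library 5, the edgeR BH-adjusted p was 0.107 for Map3k8, 0.189 for Rnf31, 0.162 for Tnfrsf4, 0.105 for Tnfrsf18, 0.0504 for Ccl5, 0.0683 for Il6, 0.163 for Cxcl1 and 0.101 for Egr2. Without ZsGreen-positive library 3 the same 8 genes had adjusted p of 0.0991, 0.206, 0.17, 0.0947, 0.0544, 0.084, 0.145 and 0.1. Map3k8 and Rnf31 each lost the call without 7 of the 8 lung libraries, Tnfrsf4 without 6, Tnfrsf18 and Cxcl1 without 4, Ccl5 and Egr2 without 3 and Il6 without 2. Atf3 lost it without ZsGreen-positive library 1 (adjusted p = 0.0765). The remaining calls, Sele, Ptgs2 and Fosb, were named after their values were seen and also failed without single libraries, 4, 3 and 5 of the 8 in that order.

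Each of the 10 genes was also matched with the gene whose profile over the 11 libraries lay closest, by root mean square distance of centred log2(CPM + 1) values among 8861 genes with a mean of at least 10 CPM. The match of Nfkb1 was Gata3, the factor that specifies ILC2 (distance 0.0741), at 1018 and 919 CPM in the ILC2 groups and 84.3 CPM in DN3 cells. The match of Nfkb2 was Septin11 (0.0682), that of Rela was Impa2 (0.0752), and that of Rel was the kinase Sgk1 (0.167). Nfkbia lay closest to Adam12 (0.0984), Tnfaip3 to Sorl1 (0.115), Relb to Stx11 (0.118), Bcl3 to Sh3bgrl2 (0.159), Nfkbiz to the prostacyclin receptor Ptgir (0.176) and Nfkbid to Dkk3 (0.182). Among the 10 genes themselves, the closest pairs were Tnfaip3 with Nfkbid (0.241) and Tnfaip3 with Nfkbia (0.272). The distances describe 11 libraries in which the step between lung and thymus dominates.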

How the data were processed

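Per the labels' protocols, RNA isolated with PicoPure went into Watchmaker Genomics mRNA libraries. The input here was whole-number counts per gene, deposited by the authors in 2 tables whose lung columns were identical. The submitters' processing notes name GRCm39 and DESeq2. Not given in the sources used here are the aligner, counter, annotation and use of strand.

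Samples were grouped by the labels (5, 3 and 3 libraries). Counts were tested with edgeR 4.0.16 (R 4.3.3), TMM scaling, a minimum count of 10, the quasi-likelihood test and Benjamini-Hochberg adjustment over all genes tested, at a threshold of 0.05. Batch was a term in the ILC2 comparison (8 lung libraries) and not in those with DN3 (all 11 libraries). DESeq2 1.42.0 and limma 3.58.1 served as alternatives. The fits were also run on simulated counts that held no batch effect, and the outcome is not given here. Chi-square per degree of freedom between replicates lay between 1.77 and 15.3 over 16 pairs, so none was counted as a repeat sequencing of the same library. This measure cannot tell separate animals from separate preparations of the same RNA.

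The 10 genes and the lists were chosen with earlier results of these data known. All 10 genes were named, and, per list, comparison and direction, up to 3 called genes in order of p whose higher group reached 5 CPM. Lengths came from GENCODE M21 and promoters from RefSeq, both of GRCm38, so no coordinates are given for the counts.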

Additional observations from a re-analysis of the deposited data

How the results depend on the processing

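The counts of called NF-kB genes were the same under all alternatives run: 0 higher and 0 lower between the ILC2 groups under 19 alternatives, and 0 higher and 10 lower in DN3 cells under 20 in each comparison. In DN3 cells against ZsGreen-negative ILC2 the median of all genes was -0.10, and 0.01 after upper-quartile scaling, a shift small beside the changes of the 10 genes. Of 190 single-gene values between the ILC2 groups 11 changed sign, none of them called, and the cause was not tested. Nfkb2 was -0.00036 with genes kept at 1 CPM in 3 libraries and -0.10 with the structural score as a term, and with that term Nfkbid was -0.056 and Bcl3 0.054. Leaving out single libraries gave ranges of -0.077 to 0.059 for Nfkb2, -0.16 to 0.013 for Rela, -0.099 to 0.0079 for Relb and -0.15 to 0.030 for Bcl3. With the replicate block Relb was 0.0037, and the block changed no call of the 10 genes, while Cxcl2 and Zfp36 lost theirs between the ILC2 groups (log2 fold changes -0.62 and -0.30, adjusted p 0.0674 and 0.465). The numbers were not taken to pair the libraries, since correlations of same-numbered deviations between the ILC2 groups were 0.0781, -0.138 and -0.0484. Leaving out single libraries gave 0 to 1 NF-kB genes higher and 0 to 1 lower in 2025 against 2024. All genes called between the ILC2 groups fell from 323 higher and 300 lower to 130 and 103 with the block, to 145 and 153 in the 2024 batch alone, and to 16 and 43 with the structural score, and rose to 621 and 460 with no filter. Levels without scaling moved by more than 1 SD for 13 of 30 group means. Depth limits the DN3 values of Bcl3, at 4 to 6 counts a library.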
